A study of Drosophila melanogaster with 16 samples.

Results

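The 80 genes described here encode subunits of the 5 enzyme complexes of oxidative phosphorylation in Drosophila melanogaster. They were chosen by a rule on the gene symbol, set with earlier results of these data known. Symbols that start with ND- were taken as complex I, Sdh followed by A, B, C or D as complex II, UQCR- as complex III, COX4 to COX8 as complex IV, and ATPsyn as complex V. Of 17559 genes in the tables, 40 fell to complex I, 6 to complex II, 8 to complex III, 11 to complex IV and 15 to complex V. In 18 of the 80 the symbol is that of a subunit followed by L, which FlyBase uses for a like copy, and 62 are the subunits themselves. The rule leaves out subunits with other names and those encoded in mitochondrial DNA, which were read as separate lists. RNA had been sequenced from the isolated trachea of larvae of Canton S, a wild-type laboratory strain shared by every library. Larvae of each sex had been exposed to cigarette smoke or to air, which makes 4 groups (smoke females, air females, smoke males, air males) of 4 libraries. The smoke came from research cigarettes and was given for 60 min, with 4 puffs in each min. The labels give no larval age and do not say whether trachea of several animals were pooled or whether replicates came from separate animals, so p-values measure the spread between these libraries, which may be technical.

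Oxidative phosphorylation takes place in the inner mitochondrial membrane. Complex I (NADH dehydrogenase) and complex II (succinate dehydrogenase) pass electrons to ubiquinone, complex III hands them to cytochrome c, and complex IV (cytochrome c oxidase) hands them to oxygen. Complexes I, III and IV pump protons, and complex V (ATP synthase) lets the protons back to make ATP. Most subunits are nuclear genes, a few are encoded in mitochondrial DNA, and the members of one complex are needed in fixed proportions. The larval trachea is the branched airway that carries air to the tissues, including muscle, which is rich in these complexes.

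Libraries held 15036560 to 23434521 reads in genes. Of 12 tracheal marker genes listed, 11 were found, and they summed to 9239.5 to 11798 CPM (reads scaled to the assigned reads of the library) in smoke females, 6590.4 to 10036 in air females, 10597 to 14342 in smoke males and 7701 to 11820.3 in air males. Markers of other tissues were present too. Muscle markers, 19 genes, summed to 2389.9 to 6802 CPM in smoke females, 2138 to 13504 in air females, 1507 to 4367 in smoke males and 4004 to 13186 in air males. One library stood apart before any comparison: male air replicate 3 held 34635 CPM of 8 fat body markers and 7668 CPM of 10 salivary gland markers, against 315 to 1842 and 4.03 to 35.9 CPM over the smoke males. The other 3 male air libraries ranged up to 5407 CPM of fat body and 35.6 CPM of salivary gland markers. Counts and medians over the subunit genes in males are therefore given with and without air replicate 3. Female air replicate 3 was treated alike, though its fat body markers (6427 CPM) stood near those of female air replicate 4 (6215 CPM). Its salivary gland markers (61.8 CPM) were the lowest of the air females. In both sexes air replicate 3 was the highest air library for most members, so leaving it out raises their log2 change.

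The median log2 change of the subunit genes was below 0 in both sexes, and not one gene passed the test on its own. The test was limma on the log2(value + 1) of the deposited normalised counts, smoke over air in each sex, with Benjamini-Hochberg adjustment over all genes tested and a threshold of 0.05. Genes entered it when 4 or more of the 8 libraries of a sex had a value of 10 or above, which kept 60 of the 80 members in females and 59 in males. The log2 change was below 0 for 53 of 60 members in females, against 52.2% of all genes, and for 56 of 59 in males, against 50.9%. The median log2 change of the members was -0.17 in females, where all 8877 genes tested had a median of -0.02, and -0.22 in males, where all 8705 genes had -0.01. These medians correspond to levels 11.2% lower in smoke females and 13.9% lower in smoke males on that scale. Without air replicate 3 the members' medians were -0.079 in females and -0.12 in males, with 48 of 60 and 52 of 59 members below 0, against 50.9% and 50.3% of all genes. With the libraries of a sex brought to the same upper quartile the members' medians were -0.28 and -0.30, while the median of all genes moved by -0.108 in females and -0.0845 in males. Set against all genes, the members stood at -0.154 in females under both scalings and at -0.210 and -0.211 in males. A single scaling factor per library shifts nearly all genes alike, so this agreement was fixed in advance and tests nothing.

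Called genes were counted against what the whole table gave. In females limma called 0 of 60 members in either direction, against 10.9% of all genes higher and 7.09% lower, and the smallest adjusted p of a member was 0.0677. In males it called 0 of 59, against 8.89% higher and 4.64% lower, with a smallest adjusted p of 0.0547. At an unadjusted p under 0.05 by limma, 5 members were lower in females, against 15% of all genes, and 9 in males, against 14.2%, and 0 were higher in either sex, against 18% of all genes in females and 17.3% in males. With edgeR on the whole reads recovered from the deposited values the calls were again 0 in females, against 10.4% of all genes higher and 7.34% lower, and 0 in males, against 7.6% and 3.97%. At an unadjusted p under 0.05 edgeR put 4 members lower in females, against 16% of all genes, and 13 in males, against 15.6%. DESeq2 on the same reads called 1 member lower in females, where it called 11.2% of all genes lower, and 6 in males, where it called 10.1%. By limma at an unadjusted p and by DESeq2, the members' share was close to that of all genes in males and below it in females. By edgeR at an unadjusted p it was above that of all genes in males and below it in females. With replicate number as a block limma called 5 members lower in females, against 12.7% of all genes, and 21 in males, against 13.2%. With that block the members' share was above that of all genes in males and below it in females. The labels do not say that a number marks a shared animal or batch. The column names of replicates 3 and 4 end in serial numbers that lie close together within a replicate number, across sex and treatment. What these serial numbers mark is not stated. With a term for the style of column name limma called 2 members lower in females, against 12.6% of all genes, and 6 in males, against 8.33%. With the libraries of a sex brought to the same upper quartile, limma called 2 members lower in females (ND-B14 and UQCR-6.4, against 13.5% of all genes) and 3 in males (ATPsynF, ND-B14 and ND-B22, against 6.23%), and the share of higher genes among all calls was 37.5% in females and 45.9% in males, against 60.7% and 65.7% as deposited. Leaving out female air replicate 2 gave 2 calls (ND-15 and ND-B14, against 9.60% of all genes lower) and leaving out female smoke replicate 2 gave 1 (UQCR-6.4, against 4.29%).

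The summed level was lower in smoke on the CPM scale. Over the 80 members it was 6076, 6319, 6247 and 5764 CPM in smoke females, against 7197, 6486, 7998 and 7444 CPM in air females. In males it was 5886, 5908, 6059.6 and 5631 CPM in smoke males, against 6660.4, 6657, 7992 and 6757 CPM in air males. On this scale every smoke library lay below every air library of its sex. On the scale of the deposited normalised counts the groups overlapped, with sums of 115044 to 130438 in smoke females and 116517 to 153931 in air females, and of 108699 to 120535 in smoke males and 114251 to 153912 in air males. In RNA of a whole tissue, fewer cells of a type and less RNA per cell cannot be told apart.

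**Figure D1:**
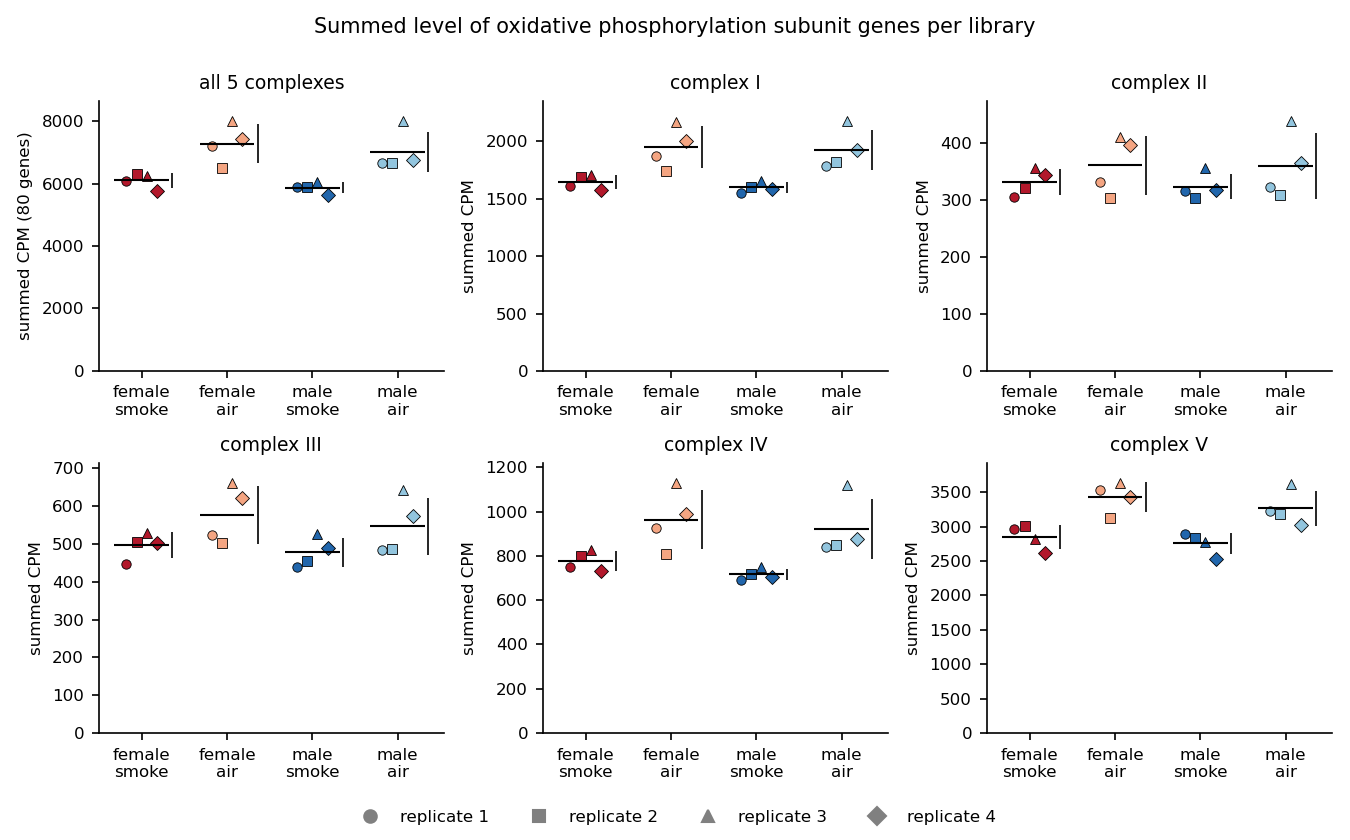
Summed level, in CPM, of the subunit genes in each of the 16 libraries, for all 80 genes and by complex, with smoke left of air in each sex. Points are libraries with 1 symbol per replicate number, horizontal lines are group means and vertical lines 1 SD (n = 4), and for all 5 complexes together the smoke libraries (5764 to 6319 in females, 5631 to 6059.6 in males) lie below the air libraries (6486 to 7998 in females, 6657 to 7992 in males).

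**Figure D2:**
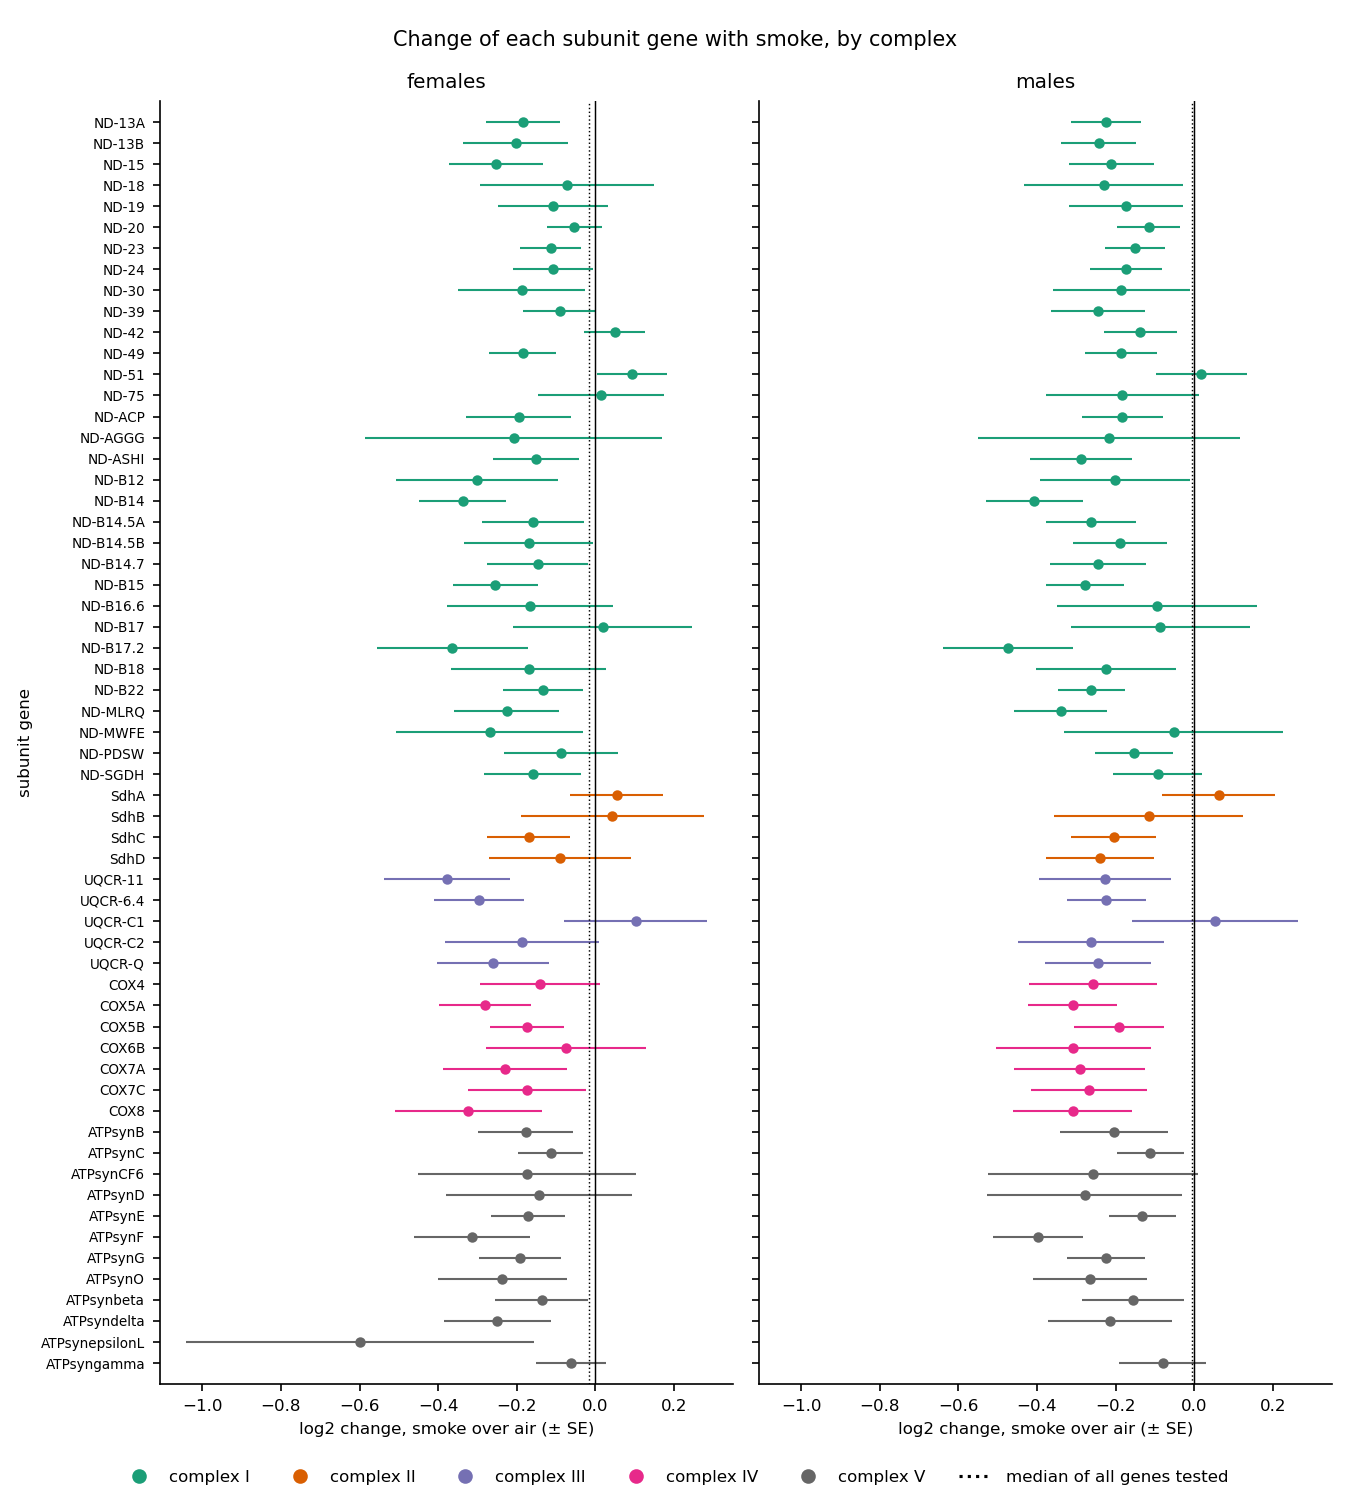
Log2 change of each subunit gene tested, smoke over air, with its standard error from limma, in females and in males, coloured by complex. Most points lie left of 0 and left of the dotted median of all genes tested (-0.02 in females, -0.01 in males), and ND-51, SdhA and UQCR-C1 lie right of 0 in both sexes.

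Levels per length were compared as RPKM, which is CPM divided by exon length in kb. Complex V genes stood highest and complex I genes lowest. Medians were taken over the tested members of a complex that are not copies. For complex V the median was 154, 191, 144 and 183 RPKM in smoke females, air females, smoke males and air males. Complex IV had medians of 131, 158, 122 and 155 RPKM in the same 4 groups, and complex III 55.5, 73.2, 52.9 and 65.1. For complex II the medians were 51.7, 58.1, 51.9 and 57.3 RPKM, and for complex I 48.8, 55.8, 46.6 and 54.8. The highest member was ATPsynC, the subunit of the rotating ring of ATP synthase, at 438 ± 25.3 RPKM in smoke females and 514 ± 33.7 in air females, and at 431 ± 17.9 in smoke males and 489.7 ± 24.0 in air males (SD, n = 4). Next to it stood ATPsynbeta, the catalytic subunit, at 326 ± 60.5 and 385 ± 41.6 RPKM in smoke and air females and 318 ± 56.2 and 370.1 ± 47.3 in smoke and air males. Among genes tested in both sexes the lowest was ND-MWFE, at 3.86 ± 1.11 RPKM in smoke females and 5.04 ± 1.34 in air females. Of its exons 35.0% overlap other genes, Nrk on the same strand and TppII on the opposite strand. Neither the use of strand nor the treatment of shared reads in the counting is stated. Its reads in the overlaps thus cannot be separated from those of these genes.

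Complex I carries electrons from NADH through a flavin and a chain of iron-sulphur clusters. Its 32 tested genes had a median log2 change of -0.16 in females, with 28 below 0, and of -0.20 in males, with 31 below 0. Without air replicate 3 the medians were -0.067 in females, with 26 below 0, and -0.097 in males, with 28 below 0. The 7 genes of the catalytic core (ND-75, ND-51, ND-49, ND-30, ND-24, ND-23 and ND-20, a division made after the values were seen) had medians of -0.11 in females and -0.17 in males. The 25 accessory genes, which build and brace the enzyme around that core, had medians of -0.17 and -0.22. Leaving out air replicate 3 gave core medians of -0.057 and -0.076 and accessory medians of -0.076 and -0.13. The difference between core and accessory genes was not tested.

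ND-B14 (FBgn0033570), an accessory subunit of the matrix arm and orthologue of human NDUFA6, had the smallest p of all members in females. Its normalised counts were 783, 763, 856 and 823 in smoke females, against 917, 884, 1199.96 and 1105 in air females. In males they were 705, 717, 804 and 811 in smoke males, against 889.6, 853, 1148 and 1170.3 in air males. Every smoke library lay below every air library in both sexes, which in females held for this member alone of 60, against 10.8% of all genes. The log2 changes were -0.34 ± 0.11 in females (limma adjusted p = 0.0677) and -0.41 ± 0.12 in males (adjusted p = 0.0648), both short of the threshold. DESeq2 called it in both sexes, as did limma with libraries brought to the same upper quartile and limma with a term for the 2 styles of column name, while edgeR called it in neither. Without air replicate 3 the changes of ND-B14 were -0.26 in females (limma adjusted p = 0.132) and -0.34 in males (adjusted p = 0.137).

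ND-B17.2 (FBgn0031436), orthologue of human NDUFA12 in the same arm, had the lowest log2 change of complex I. Its counts were 563, 581, 758 and 625 in smoke females, against 680.4, 629, 1136 and 876 in air females. Among males they were 479, 546, 671 and 577 in smoke males, against 667, 657, 1025 and 838 in air males. In both sexes the groups overlapped, since the smoke replicate 3 lay within the air range. The log2 changes were -0.36 ± 0.19 (limma adjusted p = 0.227) in females and -0.47 ± 0.17 (adjusted p = 0.0932) in males. Without air replicate 3 they were -0.20 (limma adjusted p = 0.419) and -0.34 (adjusted p = 0.166).

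ND-B22 (FBgn0032511), orthologue of human NDUFB9 in the membrane arm, had counts of 774, 770.2, 705 and 689.6 in smoke males, against 872, 850.2, 998 and 809.9 in air males. These groups did not overlap, as held for 7 of 59 members in males, against 9.11% of all genes, the other 6 being ATPsynF, COX5A, ND-13A, ND-23, ND-B14 and ND-B14.5A. Its log2 change in males was -0.26 ± 0.09 (limma adjusted p = 0.0773), and in females, where it averaged 791 ± 51.9 in smoke females and 872 ± 109.8 in air females with overlap, -0.13 ± 0.10 (adjusted p = 0.411). ND-B15 (FBgn0033961), another membrane arm gene, averaged 353 ± 31.9 in smoke females and 422 ± 46.2 in air females (SD, n = 4), a log2 change of -0.25 ± 0.11 (limma adjusted p = 0.142). In males it averaged 320.4 ± 25.04 in smoke and 389 ± 37.7 in air, a change of -0.28 ± 0.10 (adjusted p = 0.0970).

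ND-MLRQ (FBgn0052230), the complex I gene with the highest level per length, is the orthologue of human NDUFA4, a protein later assigned to complex IV in mammals. It had 1634, 1701, 1388 and 1269 in smoke males, against 1881, 2064, 1990.5 and 1623 in air males. Smoke replicates 3 and 4 lay below every air library, and smoke replicates 1 and 2 lay above air replicate 4. The log2 change was -0.34 ± 0.12 in males (limma adjusted p = 0.0923) and -0.23 ± 0.13 in females (adjusted p = 0.280), where it averaged 1777 ± 276 in smoke females and 2066 ± 225 in air females.

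A few genes of complex I had log2 changes near or above 0 in females. ND-51 (FBgn0031771), the flavin-bearing subunit that takes up NADH, had 2025, 2204, 2301 and 2305 in smoke females, against 1952, 1844, 2264 and 2244 in air females. Its male counts were 1932, 1919, 2414 and 2250.3 in smoke males, against 1915, 1838, 2389 and 2275 in air males. The groups overlapped throughout, with log2 changes of 0.09 ± 0.09 in females (limma adjusted p = 0.516) and 0.02 ± 0.12 in males (adjusted p = 0.935). ND-75, the largest iron-sulphur subunit, had log2 changes of 0.01 ± 0.16 in females and -0.18 ± 0.20 in males, and the accessory gene ND-42 0.05 ± 0.08 and -0.14 ± 0.09. With libraries brought to the same upper quartile the sign for ND-51 turned negative in both sexes.

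Complex II is the enzyme that the respiratory chain shares with the citric acid cycle, and its 4 tested genes had a median log2 change of -0.024 in females and -0.16 in males. These medians were 0.086 and -0.028 without air replicate 3. Within replicates 1 and 2 alone they were 0.078 and -0.031, and within replicates 3 and 4 alone -0.153 and -0.276. Its summed level was 305, 321, 357 and 344 CPM in smoke females, against 332, 304, 412 and 398 CPM in air females. In males it was 317, 304, 357 and 318 CPM in smoke males, against 324, 309.9, 439 and 365 CPM in air males. The groups overlapped in both sexes, and air replicate 3 was the highest of its group. SdhA (FBgn0261439), the flavoprotein that oxidises succinate, averaged 3052 ± 299 in smoke females and 2953 ± 422 in air females, and 2939 ± 289 in smoke males and 2846 ± 574 in air males. Its log2 changes were 0.05 ± 0.12 and 0.06 ± 0.14 in females and males (limma adjusted p = 0.796 and 0.809), negative in both sexes with the same upper quartile. SdhB (FBgn0014028), the iron-sulphur subunit, averaged 1944 ± 401 in smoke females and 1921 ± 571 in air females, and 1768 ± 359.6 in smoke males and 1964 ± 649.7 in air males, with log2 changes of 0.04 ± 0.23 and -0.12 ± 0.24. The female sign of SdhB also turned negative with the same upper quartile. The membrane anchors were lower on average. SdhC (FBgn0037873) had a log2 change of -0.17 ± 0.10 in females and -0.20 ± 0.11 in males, and SdhD (FBgn0039112) of -0.09 ± 0.18 and -0.24 ± 0.14, with limma adjusted p between 0.237 and 0.774 over the 4 tests.

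Complex III passes electrons from ubiquinol to cytochrome c, and the log2 changes of its 5 tested genes had medians of -0.26 in females and -0.23 in males. Both medians were -0.13 without air replicate 3. UQCR-11 (FBgn0260008), a small subunit, had 1119, 1342, 974 and 826 in smoke females, against 1598, 1384, 1342 and 1161 in air females. In males it had 1121, 1216, 888 and 809 in smoke males, against 1221, 1452, 1073 and 965 in air males. In every one of the 4 groups its replicates 3 and 4 lay below replicates 1 and 2, and the groups of a sex overlapped. Its log2 changes were -0.38 ± 0.16 in females (limma adjusted p = 0.139) and -0.23 ± 0.17 in males (adjusted p = 0.397), and with a term for the style of column name limma called it in females. UQCR-6.4 (FBgn0034245), another small subunit, averaged 615 ± 95.4 in smoke females and 751 ± 44.8 in air females, a change of -0.30 ± 0.11 (limma adjusted p = 0.111), and 566 ± 41.4 in smoke males and 663 ± 74.9 in air males, a change of -0.22 ± 0.10 (adjusted p = 0.169). It was called in females with the same upper quartile or without female smoke replicate 2, and 40.5% of its exons overlap another gene.

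The large core proteins of complex III differed from each other in sign. UQCR-C1 (FBgn0038271) had 3821, 4397, 5528 and 5389 in smoke females, against 3583, 3689.6, 5450.2 and 5231 in air females. In males it had 3713, 3740.2, 5459 and 4905 in smoke males, against 3592, 3195, 5680.2 and 4931 in air males. Replicates 3 and 4 stood above replicates 1 and 2 in smoke and in air alike. The log2 changes were 0.10 ± 0.18 and 0.05 ± 0.21 (limma adjusted p = 0.744 and 0.895), and both turned negative with the same upper quartile. UQCR-C2 (FBgn0250814) had a log2 change of -0.19 ± 0.20 in females and -0.26 ± 0.19 in males (limma adjusted p = 0.553 and 0.372), and with the term for column names limma called it in males.

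Complex IV reduces oxygen to water. All 7 of its tested genes had a log2 change below 0 in each sex, with medians of -0.17 in females and -0.29 in males. Without air replicate 3 the medians were -0.11, with 6 below 0, and -0.13, with 7 below 0. Their summed level was 749, 799, 828 and 731 CPM in smoke females, against 928, 810.4, 1128 and 991 CPM in air females. In males it was 692, 719.5, 751 and 703 CPM in smoke males, against 842, 848, 1121 and 875 CPM in air males. On the CPM scale the male groups did not overlap, while in females smoke replicate 3 lay above air replicate 2. In normalised counts the male groups overlapped too, at 13001 to 14943 in smoke males and 14563 to 21579.8 in air males. COX5A (FBgn0019624), a nuclear subunit on the matrix side, had 2422, 2887, 2929.9 and 2574 in smoke females, against 2995, 2891, 3999 and 3325 in air females. Its male counts were 2357, 2509.9, 2576 and 2367 in smoke males, against 2798, 2734, 3836 and 2900.4 in air males. Male air replicate 3 stood well above the other male air libraries, and every male smoke library still lay below all of them. The log2 changes were -0.28 ± 0.12 in females (limma adjusted p = 0.137) and -0.31 ± 0.11 in males (adjusted p = 0.102). Without air replicate 3 the changes of COX5A were -0.19 (limma adjusted p = 0.249) and -0.20 (adjusted p = 0.118). DESeq2 called COX5A in males.

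COX8 (FBgn0263911), a small membrane subunit with the lowest level per length of complex IV, averaged 976 ± 241 in smoke females and 1201 ± 157 in air females, and 906 ± 148 in smoke males and 1123 ± 174 in air males, with log2 changes of -0.32 ± 0.19 and -0.31 ± 0.15 (limma adjusted p = 0.269 and 0.205). With the term for column names limma called COX8 in males. COX7A (FBgn0040529), with 225 RPKM in air females, had a log2 change of -0.23 ± 0.16 in females and -0.29 ± 0.17 in males. COX6B (FBgn0031066), which faces the intermembrane space, had -0.07 ± 0.20 in females and -0.31 ± 0.20 in males. Its female sign turned positive without female air replicate 3 or without female smoke replicate 1. COX5B (FBgn0031830) had the smallest male change of the complex, at -0.19 ± 0.12.

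Complex V genes were lower on average in every tested case, 12 of 12 in females and 11 of 11 in males, with median log2 changes of -0.18 and -0.21. Leaving out air replicate 3 left 11 of 12 and 11 of 11 below 0, with medians of -0.12 and -0.083. Their summed level was 2963, 3007, 2823 and 2609.96 CPM in smoke females, against 3537, 3126, 3628 and 3430.1 CPM in air females. In males it was 2886, 2829.8, 2769 and 2533 CPM in smoke males, against 3228, 3187, 3616 and 3020.4 CPM in air males. On the CPM scale neither sex had a smoke library above its lowest air library. In normalised counts the groups overlapped, at 52808 to 58945 in smoke females and 56163 to 69832 in air females, and at 49177 to 55080.4 in smoke males and 54708 to 69643 in air males. ATPsynF (FBgn0035032), a small subunit of the membrane part, had the smallest p of all members in males. Its counts were 2366, 2436, 2588 and 2177 in smoke males, against 2939, 2840.4, 3939 and 2979 in air males. Its female counts were 2469, 2786, 3084 and 2508 in smoke females, against 3069, 2721, 4331 and 3509 in air females. Male smoke lay below male air in every library and female groups overlapped. The log2 changes were -0.31 ± 0.15 in females (limma adjusted p = 0.179) and -0.40 ± 0.11 in males (adjusted p = 0.0547), and without male air replicate 3 the male change was -0.29 (adjusted p = 0.0646). In males it passed the threshold with DESeq2, with libraries brought to one upper quartile and with the term for column names, and it did not with edgeR.

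The most abundant complex V genes had small log2 changes. ATPsynC (FBgn0039830) had -0.11 ± 0.08 in females and -0.11 ± 0.09 in males, and ATPsynbeta (FBgn0010217) had -0.14 ± 0.12 and -0.16 ± 0.13. ATPsyngamma (FBgn0020235), the shaft that turns within the catalytic head, had the value nearest 0 of complex V in both sexes, -0.06 ± 0.09 and -0.08 ± 0.11 (limma adjusted p = 0.680 and 0.668). The lowest female value, -0.60 ± 0.44, belonged to ATPsynepsilonL (FBgn0051477), a copy that just passed the filter in females with counts of 13.5, 8.34, 6.99 and 10.7 in smoke females, against 15.5, 32.2, 11.3 and 8.83 in air females. Its groups overlapped, with a limma adjusted p of 0.390, and it was not tested in males.

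**Figure D3:**
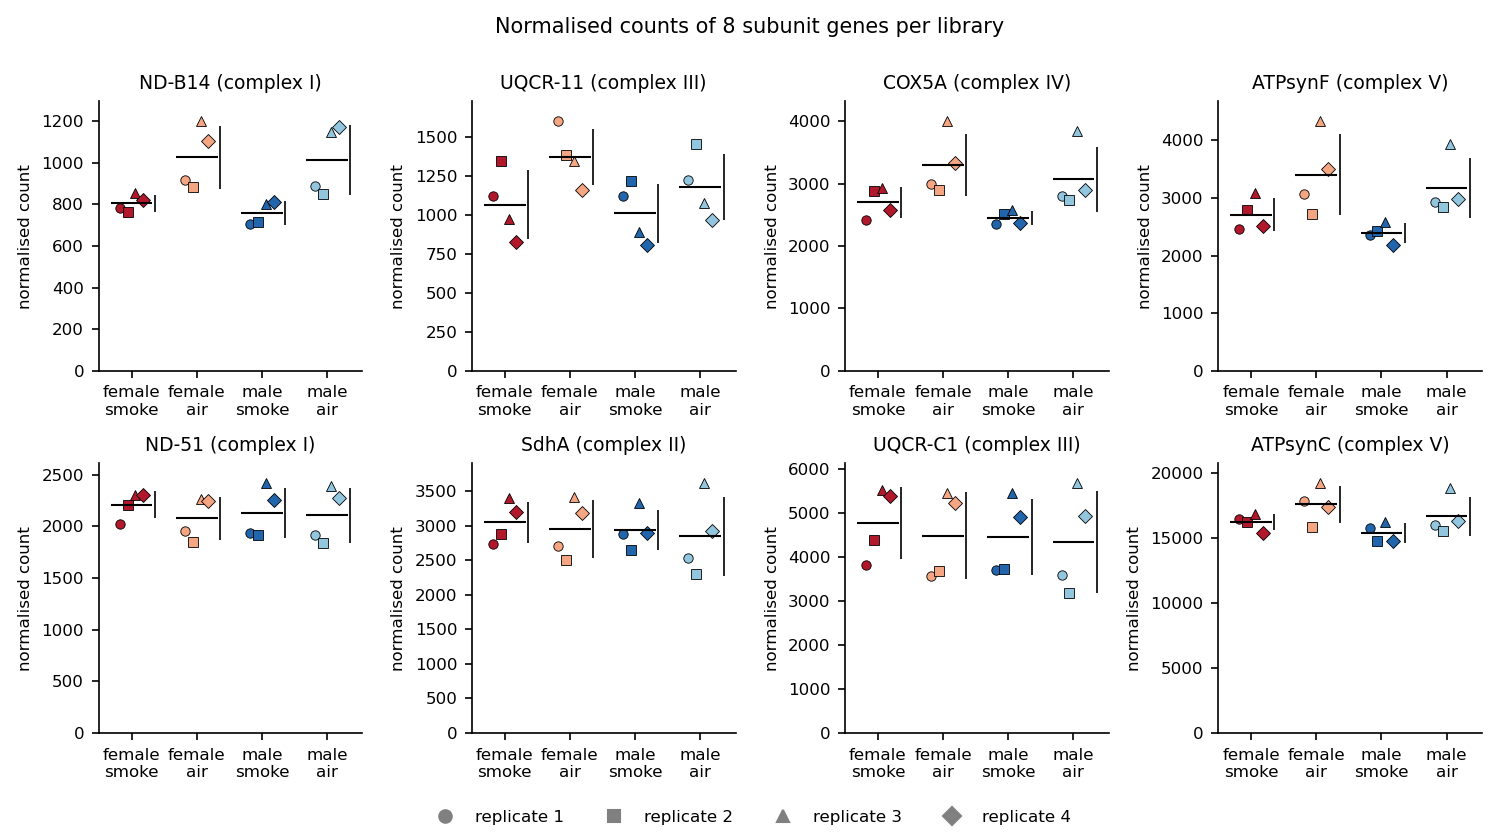
Normalised counts of 8 subunit genes in each library, with smoke left of air in each sex; horizontal lines are means and vertical lines 1 SD (n = 4). ND-B14 shows smoke below air without overlap in both sexes, UQCR-11 shows replicates 3 and 4 below 1 and 2 in every group, and ND-51, SdhA and UQCR-C1 show overlapping groups.

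Most of the copies were close to silent in trachea. Of the 18, 17 were tested in neither sex, and their reads summed to 102 in smoke females, 149 in air females, 87 in smoke males and 243 in air males, with at most 42 reads of one copy in one library. The subunit genes themselves were mostly read far more. COX4, for instance, had 12285 reads in smoke females and its copy COX4L 9. In adult flies such copies are often expressed in testis, and the copies' reads in males moved with a list of 15 testis markers. That list summed to 1.03 to 2.87 CPM in smoke males and 2.13 to 7.23 CPM in air males. In females, which have no testis, the same list summed to 1.30 to 3.69 CPM in smoke and 0.982 to 2.17 CPM in air. The part of testis RNA in the copies' lower reads in smoke males was not tested. SdhBL (FBgn0030975), the copy of the iron-sulphur subunit SdhB, had 14 reads in smoke females, 18 in air females, 4 in smoke males and 47 in air males. By library its male normalised counts were 1.94, 1.70, 0 and 0 in smoke males, against 12.4, 0.779, 19.1 and 15.3 in air males, so air replicate 2 lay within the smoke range.

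Of the 62 subunit genes, 3 were not tested. UQCR-14 and ND-MNLL, together with the copy COX5BL, had no read in any library. All 3 lie wholly within exons of another gene in the annotation (CG32576, CG45089 and Trmt6). How reads shared by overlapping genes were counted is not stated, so the zeros set no limit on the levels of these genes. ND-B8 had 4, 1, 1 and 2 reads in smoke females, air females, smoke males and air males.

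Female and male responses were then compared directly, as the log2 change in females minus that in males, in one limma model over the 16 libraries. Of the 59 members tested in both sexes 0 were called, against 2% of all genes called higher and 0.174% lower, and 0 had an unadjusted p under 0.05, where 7.27% and 6.7% of all genes did. On the recovered reads edgeR called 0 members, against 1.89% of all genes higher and 0.093% lower, and DESeq2 0, against 3.04% and 0.93%. The differences ranged from -0.22 to 0.23. The smallest p, 0.136 (limma, adjusted p = 0.531), belonged to ND-42, at 0.19 ± 0.12 with a change of 0.05 ± 0.08 in females and -0.14 ± 0.09 in males. COX6B had the largest positive difference, 0.23 ± 0.30, and ND-MWFE the largest negative one, -0.22 ± 0.37. For ND-39 it was 0.15 ± 0.15, for ND-ASHI 0.14 ± 0.17 and for ND-B22 0.13 ± 0.13. Standard errors of the difference ran from 0.10 to 0.54, so the size of any difference is known only to that precision.

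Both sexes ranked the members alike in part. Of 59 members 52 were below 0 in both, which is 88.1%, against 37.6% of 8606 genes tested in both. Across the 59 members the female and male changes had a Pearson correlation of 0.686 and a Spearman correlation of 0.551, against 0.447 and 0.580 over all genes. The sexes share no library, but members are not independent of each other, and these values describe the genes only.

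**Figure D4:**
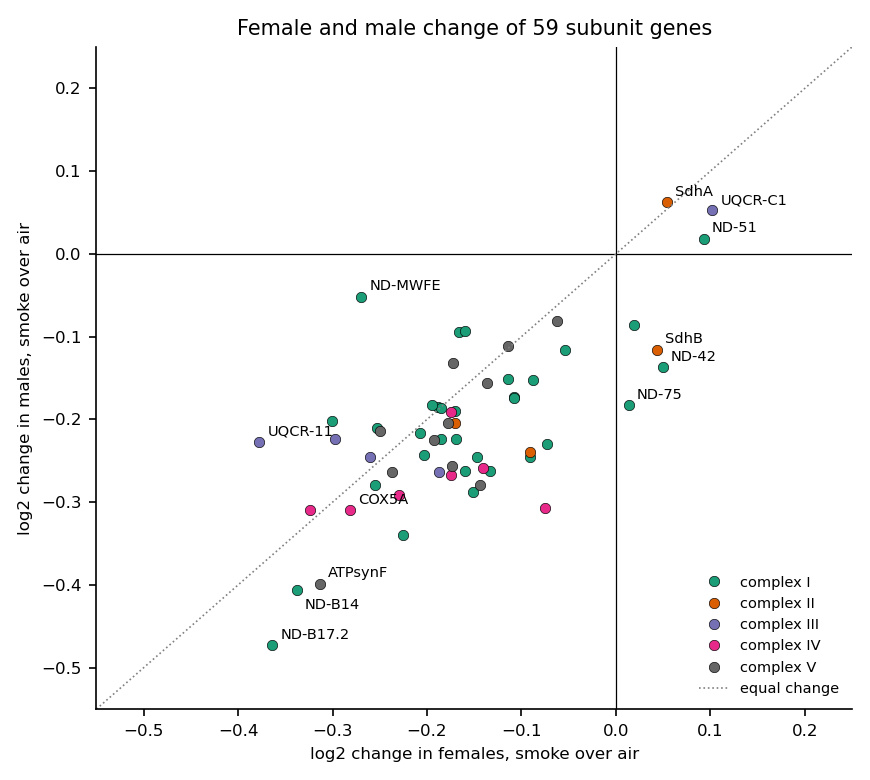
Log2 change with smoke in males against that in females for the 59 subunit genes tested in both sexes, coloured by complex, with the line of equal change dotted. Of these, 52 lie below 0 on both axes, and SdhA, UQCR-C1 and ND-51 lie above 0 in both sexes.

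Related mitochondrial genes were read from lists, whose calls by limma stand against 10.9% of all genes higher and 7.09% lower in females, and 8.89% and 4.64% in males. Of 14 listed subunits with other names and cytochrome c genes, 9 were found and 7 tested, and all 7 had a log2 change below 0 in each sex, with medians of -0.19 in females and -0.28 in males. When air replicate 3 was left out, 5 of 7 were below 0 in each sex. The only one called was cype (FBgn0015031), a complex IV subunit, in males. Its counts there were 1069, 1085, 1099 and 1036 in smoke males, against 1268, 1263, 1497 and 1254 in air males. All male smoke libraries lay below all male air libraries. Its log2 change was -0.30 ± 0.08 in males (limma adjusted p = 0.0387) and -0.20 ± 0.10 in females (adjusted p = 0.208), and the male call was lost without any one of the 8 male libraries (adjusted p 0.0625 to 0.101). The alpha subunit of ATP synthase, blw, had -0.01 ± 0.20 and -0.05 ± 0.23.

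The 13 subunits encoded in mitochondrial DNA were all below 0 in each sex, with medians of -0.21 in females and -0.31 in males, and 0 were called by limma, edgeR or DESeq2 (0 also at an unadjusted p under 0.05 in limma). Without air replicate 3 their medians were further below 0, at -0.38 in females and -0.41 in males, while those of the 80 members' tested genes came nearer 0. Their summed level was 13803, 12301, 7042 and 6839.8 CPM in smoke females, against 16367, 13377, 8504 and 9809 CPM in air females. In males it was 12100.4, 12323, 7127 and 5788 CPM in smoke males, against 13322, 16693, 9799 and 7353 CPM in air males. Replicates 1 and 2 stood above replicates 3 and 4 in all 4 groups, by more than smoke differed from air.

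Some genes that regulate fuel entry and mitochondrial DNA passed the test. Pdk (FBgn0017558), the kinase that shuts off pyruvate dehydrogenase and so the entry of pyruvate into the citric acid cycle, rose in both sexes. It had 6422, 4573, 4970.04 and 5115 in smoke females, against 841, 1113, 940.3 and 995 in air females. In males it had 7243, 5067, 6038 and 4965 in smoke males, against 861, 818, 1314 and 1065.8 in air males. The groups lay far apart, with log2 changes of 2.43 ± 0.13 (limma adjusted p = 6.06e-05) and 2.53 ± 0.18 (adjusted p = 0.000198). Of the 15 tested genes of the citric acid cycle and pyruvate dehydrogenase list it was the only one that limma called higher. The list had median log2 changes of 0.028 in females, with 7 of 15 below 0, and -0.075 in males, with 11 below 0. Without air replicate 3 the medians were 0.083 and 0.046, with 4 and 6 below 0. Sucb (FBgn0029118), a subunit of succinyl-CoA ligase, fell in females to 836 ± 45.0 in smoke, against 988 ± 35.2 in air, a log2 change of -0.24 ± 0.07 (limma adjusted p = 0.0410). In males it had -0.55 ± 0.18 (adjusted p = 0.0735). The female call of Sucb was lost without any one female library other than air replicate 2 (adjusted p 0.0609 to 0.102).

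Of 9 tested regulators of mitochondrial gene expression, limma called 2 higher in each sex (against 10.9% of all genes in females and 8.89% in males). It called 1 lower in females (against 7.09%). mtRNApol (FBgn0261938), the polymerase that transcribes mitochondrial DNA, had 789.5, 742, 742 and 833 in smoke females, against 574, 509.8, 481 and 507 in air females. In males it had 1011, 763, 964 and 776 in smoke males, against 576, 465, 523 and 487 in air males. Smoke lay above air in every library, with log2 changes of 0.58 ± 0.08 (limma adjusted p = 0.00316) and 0.77 ± 0.12 (adjusted p = 0.00629). The gene tam (FBgn0004406), the catalytic subunit of the mitochondrial DNA polymerase, rose by 0.38 ± 0.09 in females and 0.58 ± 0.11 in males (limma adjusted p = 0.0245 and 0.0156). Its female call was lost with the same upper quartile (adjusted p = 0.0959) and without female smoke 1, smoke 3 or air 3 (0.0563 to 0.0672), and its male call without male smoke 1 (0.0519). TFAM (FBgn0038805), which packages mitochondrial DNA, fell in females to 645 ± 39.4 in smoke, against 861 ± 49.7 in air, a change of -0.42 ± 0.08 (limma adjusted p = 0.00904), and had -0.12 ± 0.08 in males (adjusted p = 0.323).

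Among 9 tested assembly factors, Sirup (FBgn0031971), the fly counterpart of the complex II factor SDHAF4, rose in females. It had 4976, 4441, 6608 and 6133 in smoke females, against 1626, 1694, 3852 and 2292 in air females. Every smoke library lay above every air library, with a log2 change of 1.30 ± 0.27 (limma adjusted p = 0.0148). In males it had 6054, 3665, 5614 and 3479.7 in smoke males, against 3172, 1153, 2846 and 2053 in air males, a change of 1.09 ± 0.33 (adjusted p = 0.0669). Surf1 (FBgn0029117), which helps build complex IV, fell in males to 257 ± 23.6 in smoke, against 332 ± 28.1 in air, a change of -0.37 ± 0.10 (limma adjusted p = 0.0492), with -0.26 ± 0.10 in females (adjusted p = 0.114). The male call was lost without any one of the 8 male libraries (adjusted p 0.0569 to 0.130). Of 5 carrier and channel genes, porin (FBgn0004363), the channel of the outer membrane, fell in females to 7409.8 ± 267 in smoke, against 9041 ± 609 in air, a change of -0.29 ± 0.07 (limma adjusted p = 0.0305), and had -0.24 ± 0.08 in males (adjusted p = 0.0970). The female call of porin was lost without any one female library other than air replicates 1 and 2 (adjusted p 0.0591 to 0.0805). None of the tested genes for mitochondrial antioxidants and uncoupling, 4 in females and 5 in males, was called by limma, edgeR or DESeq2, with 1 gene of each sex at an unadjusted p under 0.05 in limma (Bmcp in females and Ucp4C in males).

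**Figure D5:**
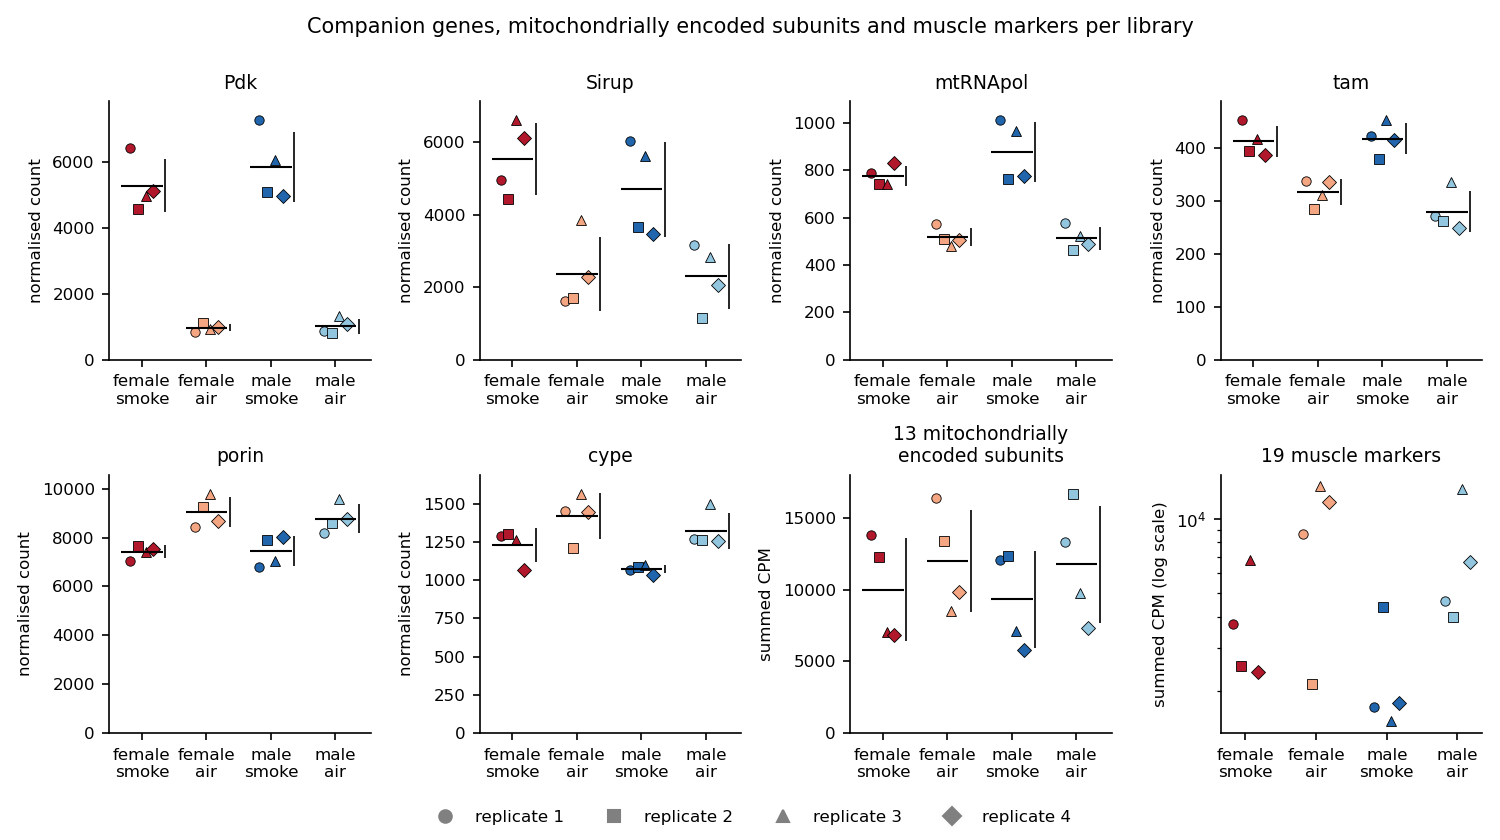
Normalised counts of Pdk, Sirup, mtRNApol, tam, porin and cype, and summed CPM of the 13 mitochondrially encoded subunits and of 19 muscle markers (log axis), in each library with smoke left of air; lines are means and 1 SD (n = 4), not drawn on the log axis. Pdk and mtRNApol lie higher in smoke in every library of both sexes, and the mitochondrially encoded subunits separate replicates 1 and 2 from 3 and 4.

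Other measures were set beside the subunits, and not all of them moved with the subunits. Replicate 3 was the highest air library for 49 of 60 members in females, against 26.0% of all genes, and for 51 of 59 in males, against 30.6%. Smoke replicate 3 was the highest smoke library for 41 of 60 in females (23.9% of all genes) and 40 of 59 in males (28.9%). Replicates 1 and 2 and replicates 3 and 4 differ in the style of their column names, and 23 of 59 members had replicates 3 and 4 above replicates 1 and 2 in all 4 groups, against 7.85% of all genes, while 2 had them below (ND-AGGG and UQCR-11, against 10.5%). Within replicates 1 and 2 alone the median change was -0.05 in females and -0.12 in males, and within replicates 3 and 4 alone -0.27 and -0.31. Muscle markers were lower in smoke as well: all 16 tested were below 0 in each sex, with medians of -1.05 and -2.63. Without air replicate 3 these medians were -0.68 and -2.17. Of the 16, limma called 0 in females, against 7.09% of all genes lower, with 1 at an unadjusted p under 0.05, against 15%. For females edgeR called 0 and DESeq2 1, against 7.34% and 11.2% of all genes lower. For males limma called 6, edgeR 1 and DESeq2 12, against 4.64%, 3.97% and 10.1% of all genes lower. Salivary gland markers summed to 3.49 to 12.4 CPM in smoke females and 61.8 to 325 in air females, and limma called 7 of 8 tested lower there (median -4.20), against 7.09% of all genes. In males 0 of 6 were called by limma, edgeR or DESeq2 (0 also at an unadjusted p under 0.05), with a median of -2.93. Without air replicate 3 the salivary gland medians were -4.65 in females and -0.90 in males. Fat body markers summed to 315 to 1842 CPM in smoke males and 1061 to 34635 in air males. Of 8 tested, 7 were below 0 (median -2.99, and -1.98 without air replicate 3). In males limma and edgeR called 0, and DESeq2 called 7, where it called 10.1% of all genes lower. At an unadjusted p under 0.05 limma had 7, against 14.2% of all genes lower and 17.3% higher. In females fat body markers summed to 1359 to 5887 CPM in smoke and 943 to 6427 in air. There limma called 1 of 8 higher, against 10.9% of all genes, with a median of -0.32. Without female air replicate 3 that median was 0.12, with 3 of 8 below 0. Midgut markers summed to 0.659 to 6.94 CPM in smoke females, 1.79 to 286 in air females, 0.556 to 13.1 in smoke males and 4.40 to 20.4 in air males. Tracheal markers summed to 10137 ± 1191 CPM in smoke females and 8102 ± 1431 in air females, and to 11979 ± 1697 in smoke males and 9050.2 ± 1874 in air males. Of 10 tested, 2 were below 0 in each sex, with medians of 0.44 in females and 0.21 in males. In females limma called 3 higher, against 10.9% of all genes, and 1 lower, against 7.09%. In males it called 2 higher, against 8.89%, and 0 lower, against 4.64%. The part of muscle, salivary gland, fat body and midgut RNA and of these libraries in the lower subunit levels was not tested.

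The authors' deposited table of their own comparison put 1 of 62 members with an adjusted p under 0.05 in females, where 21.3% of all genes passed, and the authors' deposited table for males put 5 of 66, where 19.6% did. In the authors' deposited tables all of these were lower in smoke: ND-B14 in females, at a log2 fold change of -0.34, and in males ND-B14 at -0.41, ND-B17.2 at -0.47, ATPsynF at -0.40, ND-B22 at -0.26 and the little-read copy SdhBL at -1.64.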

How the data were processed

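RNA sequencing of larval trachea was analysed in 16 libraries, 4 per group, with groups and replicate numbers taken from the titles in the labels. Per the labels' protocols, libraries came from the NEBNext Ultra kit and were read as single ends of 75 bp. The submitters' processing notes name STAR 2.6.0c and DESeq2 1.22.2, and as genome only a human build, so no coordinates are given. What counted the reads, with which annotation and whether by strand, is not given in the sources used here. For each sex the authors deposited normalised signal for 17559 genes, which the values show to be reads over a library-specific size factor. Their deposited comparison of smoke and air, with DESeq2's column names per the file headers, holds log2 changes by the authors that look shrunken (change over error is not the statistic), a deposited score per gene (a Wald-type statistic) and deposited p-values, raw and as FDR.

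All signal values (100%) lay within 0.01 of a whole number of reads, so reads (15036560 to 23434521 per library) and size factors (0.750 to 1.30) were recovered. No column was left without a sample. CPM and RPKM come from these reads, RPKM with exon lengths of Ensembl BDGP6.54, which 17253 genes matched. Counting error is relatively largest for genes with few reads. The test was limma 3.58.1 (R 4.3.3, mean-variance trend, two-sided) on log2(value + 1), which understates the change of low genes, with Benjamini-Hochberg adjustment over all genes tested and a threshold of 0.05. Each sex was scaled on its own, so only differences within a table were tested. Alternatives were a pseudocount of 0.5, no filter, the same upper quartile, edgeR 4.0.16 (quasi-likelihood) and DESeq2 1.42.0 on recovered reads, a replicate block, a term for the style of column name (replicates 1 and 2 against 3 and 4), these replicates alone, and leaving out each library. On recovered reads edgeR called 924 genes higher and 652 lower in females, and 662 and 346 in males. The fits were checked on simulated data. Each of 24 replicate pairs differed beyond counting noise, at 23.8 to 318 in chi-square over degrees of freedom.

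Members and gene lists were chosen with earlier results of these data known. Genes named are members called (up to 8 per complex), the largest and smallest change per complex and sex, the 5 smallest p per sex and for the sex difference, the highest and lowest level per length of each complex, copies, and up to 3 called genes per companion list and sex. Members and companions outside this rule, such as ND-75, ATPsynbeta, COX4 and blw, were named after their values were seen.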

Additional observations from a re-analysis of the deposited data

Results flagged for a closer look

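In 7 of 168 sets of 4 libraries examined, 1 library stood far from the other 3 (a gap, as a share of the whole range, above Dixon's 95% critical value, which chance exceeds in about 1 set of 20). In each of the 7 it was air replicate 3, in males 6 times and in females once, and it was the highest. In male air replicate 3 the normalised count of ATPsynF was 3939, with the other male air libraries at 2840.4 to 2979, and that of COX5A was 3836, with the others at 2734 to 2900.4. Its count of cype was 1497, with the others at 1254 to 1268, and that of Sucb was 1618, with the others at 965 to 977. In female air replicate 3 the count of Sucb was 1041, with the other female air libraries at 968 to 973. The summed level of all subunit genes in male air replicate 3 was 7992 CPM, with the others at 6657 to 6757, and that of complex IV was 1121 CPM, with the others at 842 to 875. Male air replicate 3 also held the most fat body and salivary gland marker RNA of the 16 libraries, whose part in these values was not tested.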

How the results depend on the processing

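The counts of called members, 0 in each sex as reported, became 2 in females and 3 in males with the same upper quartile, 1 and 6 with DESeq2, and 2 and 6 with the term for the style of column name, and the cause was not tested. Leaving out 1 library at a time gave 0 to 2 calls in females and 0 in males. The replicate block gave 5 calls in females and 21 in males, against 12.7% and 13.2% of all genes called lower, and the labels do not say that a number marks a shared animal or batch. Same-numbered smoke and air libraries correlated at -0.0977 to 0.421 in females and 0.0383 to 0.463 in males, with 1 of 4 pairs in each sex not above 0.1. In each sex 3 of 4 smoke libraries were closest to their own number. The serial numbers in the column names of replicates 3 and 4 also run by replicate number, but no label states a shared design. The female minus male count was 0 in every setting run. The median change was -0.28 in females and -0.30 in males with the same upper quartile, -0.052 and -0.12 within replicates 1 and 2, -0.31 in males within replicates 3 and 4, and -0.24 to -0.08 in females and -0.26 to -0.12 in males when 1 library was left out. With the same upper quartile the sign turned for ND-51 (-0.015 in females, -0.067 in males), SdhA (-0.055, -0.023), UQCR-C1 (-0.0063, -0.033) and SdhB in females (-0.065), and with edgeR for ND-51 in males (-0.0058). Leaving out 1 library also turned signs: COX6B ran from -0.22 to 0.063, SdhA from -0.022 to 0.13, SdhB from -0.10 to 0.18 and SdhD from -0.20 to 0.045 in females, and ND-51 from -0.044 to 0.082, ND-MWFE from -0.24 to 0.12, SdhA from -0.032 to 0.18, SdhB from -0.26 to 0.072 and UQCR-C1 from -0.083 to 0.19 in males. Without the filter the calls of cype (adjusted p = 0.0522), Surf1 (0.0736), Sucb (0.0672) and porin (0.0603) were lost by limma. Depth limits the copies and ND-B8, which took few reads.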
